A study of Mus musculus with 10 samples.

Results

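The enzymes that make and break down 2-arachidonoylglycerol and the N-acylethanolamines were followed in mouse colon organoids, cultures of colon epithelium. The 8 genes, taken by name from a table of 56748 genes, were Abhd6, Abhd12, Mgll, Dagla, Daglb, Napepld, Faah and Naaa. Each name matched 1 protein-coding row. Of the 8, 7 had a mean of at least 0.5 FPKM over all libraries and were tested, and Mgll lay below that filter. FPKM is the number of fragments per kilobase of gene, scaled for each library, so levels of different genes can be compared.

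One group of 5 libraries (replicates 6 to 10) came from organoids given WY-14643 at 100 µM, and the other group of 5 (replicates 1 to 5) from organoids given its vehicle. Treatment began 3 days after passage and lasted 2 days. The compound WY-14643 activates PPARα, a nuclear receptor whose natural ligands are fatty acids and whose targets include the genes that oxidise them. The labels give no mouse strain, genotype, sex, age, colon region or organoid line for either group, and do not say whether the libraries came from separate cultures, so the spread that the p-values measure may be technical. No group lacked or blocked PPARα.

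Abhd6 heads the set because an earlier fit of these same libraries, matched in numerical order, called it higher after WY-14643. Its difference between the groups is therefore given as a description, with no test. The other enzymes were chosen for their function, with earlier results of these data known.

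2-arachidonoylglycerol, a monoacylglycerol, and anandamide, an N-acylethanolamine, are the main endocannabinoids, lipids made on demand that act on the receptors CB1 and CB2. 2-arachidonoylglycerol is cut from diacylglycerol by the diacylglycerol lipases DAGLα and DAGLβ and broken down by monoacylglycerol lipase (Mgll), ABHD6 and ABHD12. N-acylethanolamines are released from membrane phospholipid by NAPE-PLD and broken down by FAAH and NAAA. In the gut these lipids bear on feeding, motility and inflammation, and some N-acylethanolamines, such as oleoylethanolamide and palmitoylethanolamide, are ligands of PPARα.

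The stretches before the start sites of Abhd6 and Mgll are shown because these hydrolase genes stood far apart in measured level. Abhd6 was high, and higher after WY-14643, and Mgll was close to 0 in both groups. Each run is the 250 bases before the upstream RefSeq start in build GRCm38.p6, 5′ to 3′ on the gene's strand, with every CpG in capitals. RefSeq windows were found for 6 of the 8 genes (Abhd6, Mgll, Daglb, Napepld, Faah and Naaa). The Abhd6 stretch is chr14:8002638-8002887 on the plus strand and the Mgll stretch is chr6:88724162-88724411 on the plus strand. GRCm38.p6 is an older build than mm39, the build the submitters' processing notes name.
Abhd6: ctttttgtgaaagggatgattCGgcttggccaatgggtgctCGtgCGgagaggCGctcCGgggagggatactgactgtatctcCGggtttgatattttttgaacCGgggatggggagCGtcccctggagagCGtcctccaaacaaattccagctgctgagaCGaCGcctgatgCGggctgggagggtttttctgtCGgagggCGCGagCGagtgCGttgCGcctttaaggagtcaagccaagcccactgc
Mgll: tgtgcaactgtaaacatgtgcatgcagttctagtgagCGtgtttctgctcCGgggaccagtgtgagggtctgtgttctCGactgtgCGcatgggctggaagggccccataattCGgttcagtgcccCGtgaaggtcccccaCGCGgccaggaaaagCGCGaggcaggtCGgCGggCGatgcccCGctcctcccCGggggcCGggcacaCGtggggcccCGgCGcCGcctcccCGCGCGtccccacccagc
The Abhd6 stretch held 18 CpGs and was 58.4% G or C, and the Mgll stretch held 23 CpGs and was 68.0% G or C, against a median of 6 CpGs and 52.4% over 32841 windows of the same length. So both stretches were rich in CpG, in the gene that was read and in the gene that was almost not. The direct repeat that PPARα binds with its partner RXR, AGGTCA, then N (any base), then AGGTCA again, was searched on both strands with up to 2 mismatches among its 12 fixed letters. It matched in 3.24% of all windows and in none of the 8 windows of these genes. No match says only that these letters are not in these windows.

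Between 16136440 and 22209003 reads stood behind each WY-14643 library and between 15618244 and 29271304 reads behind each vehicle library. The epithelial markers Epcam, Cdh1, Vil1, Krt8, Krt19 and Cdx2 summed to 3250 to 6210 FPKM in WY-14643 libraries and to 3490 to 5700 FPKM in vehicle libraries. Markers of fibroblasts summed to at most 0.214 and 0.185 FPKM in the WY-14643 and vehicle groups, and those of endothelium to at most 0.607 and 0.777 FPKM. The immune genes Ptprc, Cd3e, Lyz2, Adgre1 and Csf1r summed to at most 1.32 and 0.89 FPKM, a sum that was higher with WY-14643 in 4 of 5 pairs. The neural and glial genes Elavl4, Ret and Sox10 summed to at most 1.32 and 0.631 FPKM, higher with WY-14643 in 3 of 5 pairs. Dcn and Lum of the fibroblast markers were at 0 in all libraries, as were Cd3e, Lyz2, Adgre1, Elavl4 and Sox10. Libraries also deviated from their group means in matched pairs, replicate 6 like replicate 1, 7 like 2 and so on (correlations across genes of 0.423 to 0.782, and at most 0.0602 for other pairs). The pairing comes from the data, not from a label. Cpt1a, which commits long-chain fatty acids to mitochondria and is a known PPARα target, averaged 26.6 ± 3.52 FPKM in WY-14643 libraries and 11.5 ± 2.39 FPKM in vehicle libraries (SD, n = 5 each). The same was seen for the dehydrogenase gene Acadl, at 96.4 ± 10.9 FPKM and 61.3 ± 6.69 FPKM (SD, n = 5 each).

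Ranked by mean FPKM, the enzyme genes formed a high pair, a low group and 1 gene near 0. In WY-14643 libraries the order was Abhd6 (24.5 ± 5.69 FPKM), Abhd12 (22.5 ± 6.97), Faah (3.86 ± 0.229), Napepld (3.74 ± 1.97), Naaa (3.09 ± 0.515), Dagla (1.94 ± 0.784) and Daglb (1.33 ± 0.27; SD, n = 5), with Mgll last at 0 in all 5. In vehicle libraries Abhd12 came first (21.2 ± 4.2 FPKM), then Abhd6 (13.0 ± 3.04), Faah (3.58 ± 0.314), Napepld (3.45 ± 1.65), Naaa (3.38 ± 0.686), Dagla (2.19 ± 1.15) and Daglb (1.31 ± 0.173; SD, n = 5). Neighbours in rank from Faah to Daglb overlapped in range in both groups. Within single libraries, Faah exceeded Napepld in 3 of 5 with WY-14643 and 4 of 5 with vehicle. Napepld exceeded Naaa in 2 and 3 of 5, so the order of these 3 genes varied between libraries. Naaa exceeded Dagla in 5 and 4 of 5, and Dagla exceeded Daglb in 4 of 5 in each group. Abhd6 and Abhd12 overlapped in WY-14643 libraries but not in vehicle libraries.

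**Figure D1:**
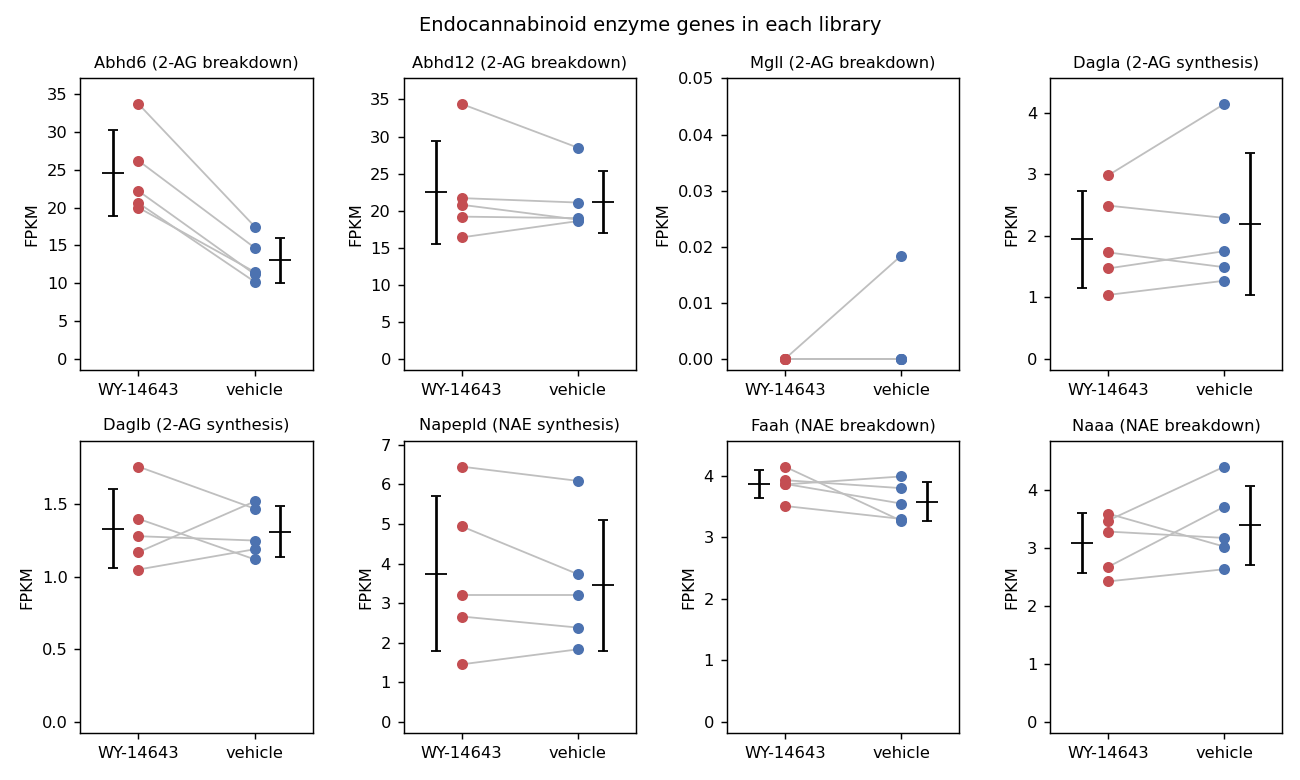
FPKM of the 8 enzyme genes in the 5 WY-14643 libraries (red, left) and the 5 vehicle libraries (blue, right). Points are libraries, grey lines join matched replicates, and black marks give the mean and SD, left out for Mgll. Scales differ between panels, 2-AG is 2-arachidonoylglycerol and NAE is N-acylethanolamine. Abhd6 is the panel in which all red points, at 20.0 to 33.7 FPKM, lie above all blue points, at 10.2 to 17.5 FPKM.

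Abhd6 encodes a membrane serine hydrolase that cleaves 2-arachidonoylglycerol and other monoacylglycerols on the inner face of the membrane. It was at 20.6, 33.7, 26.2, 22.2 and 20.0 FPKM in WY-14643 replicates 6 to 10, against 10.2, 17.5, 14.7, 11.2 and 11.5 FPKM in vehicle replicates 1 to 5. The groups did not overlap: the lowest WY-14643 value was above the highest vehicle value. The highest vehicle library, replicate 2, came closest to the lowest WY-14643 library, replicate 10. The values rest on 728 to 1260 reads per library with WY-14643 and on 387 to 1134 reads with vehicle. In 33 of 13607 genes, or 0.243%, all WY-14643 libraries stood above all vehicle libraries. Nothing is read from that share, since Abhd6 was chosen from this contrast.

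Within matched replicates the ratio of WY-14643 to vehicle was 2.03, 1.92, 1.78, 1.97 and 1.73 for Abhd6. The mean difference was 0.86 on the log2(FPKM + 1) scale, with an SD of 0.09 between the 5 pairs, whereas libraries within a group had a pooled SD of 0.30 on that scale. The pair of replicates 7 and 2 was the highest in both groups, and the ratios lay between 1.73 and 2.03. Abhd6 was chosen by a matched fit of these libraries, which favours genes with a steady difference within pairs. The narrow spread of its ratios is therefore a description only. In bulk RNA, more cells of a type and more RNA per cell cannot be told apart. The summed markers of absorptive colonocytes (Car1, Car4, Slc26a3, Aqp8, Krt20 and Guca2a) moved partly with Abhd6. They summed to 429, 897, 527, 1810 and 51.5 FPKM in WY-14643 replicates 6 to 10, against 154, 970, 317, 694 and 28.7 FPKM in vehicle replicates 1 to 5. Car1 alone made up most of the sum in every library, so the sum speaks mainly for 1 gene. It was at 324, 827, 439, 1630 and 43.1 FPKM with WY-14643, against 90.0, 887, 246, 559 and 21.0 FPKM with vehicle. Of the 6 markers, 4 averaged at least 1 FPKM and Car4 was at 0 in all libraries. The sum was higher with WY-14643 in 4 of 5 pairs and lower in replicate 7 than in replicate 2, a pair in which the ratio of Abhd6 was 1.92. In replicates 10 and 5, where the sum was lowest, the ratio of Abhd6 was 1.73. The goblet cell markers summed to 18.3 to 72.5 FPKM with WY-14643 and 33.1 to 73.1 FPKM with vehicle, higher in 1 of 5 pairs. Stem cell markers summed to 81.9 to 181 FPKM with WY-14643 and 85.7 to 173 FPKM with vehicle, higher in 2 of 5 pairs. Among them Lgr5, a receptor of crypt stem cells named after its values were seen, was at 3.79 ± 0.554 FPKM with WY-14643 and 4.79 ± 0.852 FPKM with vehicle (SD, n = 5 each), lower in 5 of 5 pairs (limma, adjusted p = 1 without pairs and adjusted p = 0.24 with them). Beyond these values, the part of these cells in the difference was not tested.

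Abhd12 (ENSMUSG00000032046, chr2:150674413-150746661, minus strand) encodes another membrane serine hydrolase, which cleaves 2-arachidonoylglycerol and, as its better known substrate, lysophosphatidylserine. It was at 20.8, 19.2, 21.7, 34.4 and 16.4 FPKM in WY-14643 replicates 6 to 10, against 18.8, 19.0, 21.1, 28.5 and 18.6 FPKM in vehicle replicates 1 to 5. The groups overlapped, and the highest library of each group belonged to the same pair, replicates 9 and 4. The log2 fold change was 0.06, with a 95% interval of -0.36 to 0.47 without pairs and -0.09 to 0.21 with them (limma, adjusted p = 1 and adjusted p = 0.807 over 13607 genes).

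Mgll (ENSMUSG00000033174, chr6:88701394-88805342, plus strand in mm39) encodes monoacylglycerol lipase, the main 2-arachidonoylglycerol hydrolase of the brain. It had 0 reads in all 5 WY-14643 libraries and in 4 vehicle libraries, and 2 reads (0.0184 FPKM) in vehicle replicate 5. Together that is 2 of 192905019 reads. A count of 0 allows up to 3 reads, which is 0.0203 to 0.0375 FPKM for Mgll in these libraries, and this limit covers counting error only. No difference between the groups was detectable at this level, and no fold change is given. The genes Gm26588, Gm44005, Gm43999, Gm43937 and Gm44001 overlap the Mgll span and were at 0 in all libraries. How reads in the shared bases were assigned was not tested. The nearest protein-coding genes on either side, looked up after the Mgll values were seen, were Kbtbd12, at 0 in all libraries, and Abtb1, at 3.18 ± 0.664 FPKM with WY-14643 and 3.07 ± 0.875 FPKM with vehicle (SD, n = 5 each).

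With Mgll near 0, Abhd6 and Abhd12 made up nearly all of the summed FPKM of these 3 hydrolase genes. Abhd6 made up 49.8, 63.7, 54.7, 39.1 and 54.9% of the sum in WY-14643 replicates 6 to 10, against 35.1, 48.1, 41.1, 28.3 and 38.2% in vehicle replicates 1 to 5. Abhd6 exceeded Abhd12 in 3 of 5 WY-14643 libraries and in 0 of 5 vehicle libraries. The sum itself was 47.0 ± 8.24 FPKM with WY-14643 and 34.2 ± 4.56 FPKM with vehicle (SD, n = 5 each). These shares follow from the choice of Abhd6 and are given with no test.

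**Figure D2:**
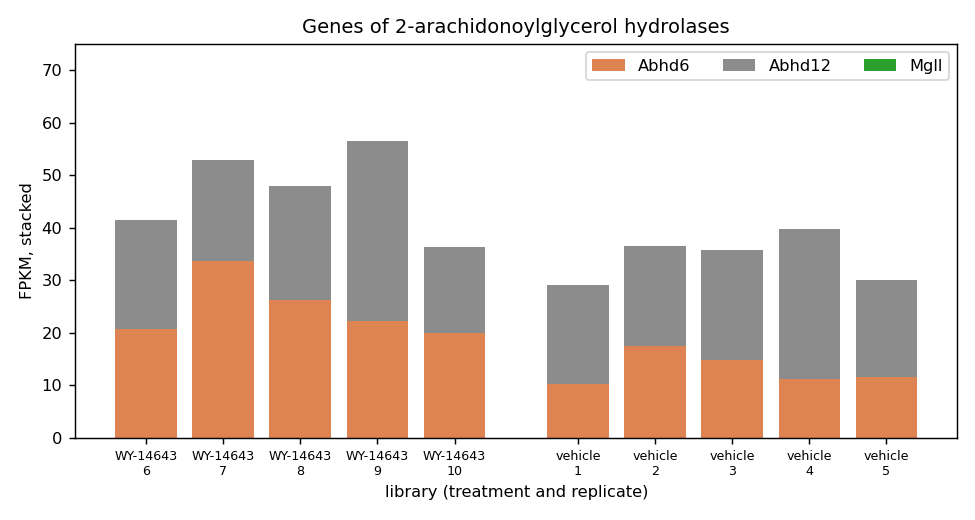
Stacked FPKM of Abhd6 (orange), Abhd12 (grey) and Mgll (green) in each library, WY-14643 on the left and vehicle on the right. Mgll is too low to be seen, and the orange part is 39.1 to 63.7% of the bar in WY-14643 libraries and 28.3 to 48.1% in vehicle libraries.

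The diacylglycerol lipases, which supply 2-arachidonoylglycerol, were low in both groups. Dagla (ENSMUSG00000035735, chr19:10222629-10282241, minus strand), the isoform that makes most of it in brain, was at 1.73, 1.47, 2.49, 2.98 and 1.04 FPKM in WY-14643 replicates 6 to 10, against 1.49, 1.75, 2.29, 4.14 and 1.27 FPKM in vehicle replicates 1 to 5. The groups overlapped, with the pair of replicates 9 and 4 highest and that of 10 and 5 lowest in each. An antisense lncRNA, Gm30042, lies within Dagla and was at 0.578 ± 0.453 FPKM with WY-14643 and 0.559 ± 0.369 FPKM with vehicle (SD, n = 5 each). The log2 fold change of Dagla was -0.09, with a 95% interval of -0.64 to 0.46 without pairs and -0.30 to 0.12 with them (limma, adjusted p = 1 and adjusted p = 0.774). Daglb (ENSMUSG00000039206, chr5:143450339-143491697, plus strand), the isoform known from the liver and macrophages, was at 1.40, 1.05, 1.28, 1.76 and 1.17 FPKM with WY-14643, against 1.12, 1.19, 1.25, 1.47 and 1.52 FPKM with vehicle. The groups overlapped here too, and the direction differed between pairs, 3 of 5 being higher. The log2 fold change was 0.01 (95% interval -0.24 to 0.25 without pairs and -0.19 to 0.21 with them; limma, adjusted p = 1 and adjusted p = 0.984). Its span shares 2309 bases with Rac1, on the other strand, which averaged 100 FPKM in both groups. The strand setting of the counting is not given in the sources used here, so reads of Daglb and Rac1 in those bases, or of Dagla and Gm30042, cannot be told apart.

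Napepld (ENSMUSG00000044968, chr5:21867899-21906394, minus strand) encodes the phospholipase D that releases N-acylethanolamines, and its level differed most between libraries. It was at 2.66, 4.94, 3.21, 1.45 and 6.45 FPKM in WY-14643 replicates 6 to 10, against 2.38, 3.73, 3.21, 1.83 and 6.09 FPKM in vehicle replicates 1 to 5. The highest library was 4.45 times the lowest, and the order of the 5 pairs was the same in both groups. The log2 fold change was 0.06, with a 95% interval of -0.65 to 0.77 without pairs and -0.13 to 0.25 with them (limma, adjusted p = 1 and adjusted p = 0.845).

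Faah (ENSMUSG00000034171, chr4:115824342-115875123, minus strand), whose product hydrolyses anandamide and related amides, was the steadiest of the set. It was at 4.15, 3.86, 3.87, 3.93 and 3.51 FPKM in WY-14643 replicates 6 to 10, against 3.27, 3.99, 3.55, 3.80 and 3.30 FPKM in vehicle replicates 1 to 5, so the highest of 10 libraries was 1.27 times the lowest. The groups overlapped, and the log2 fold change was 0.09 (95% interval -0.10 to 0.27 without pairs and -0.05 to 0.23 with them; limma, adjusted p = 1 and adjusted p = 0.666). Naaa (ENSMUSG00000029413, chr5:92405518-92426029, minus strand), the lysosomal amidase that prefers palmitoylethanolamide, was at 3.47, 2.42, 3.59, 3.28 and 2.67 FPKM with WY-14643, against 4.40, 2.63, 3.02, 3.17 and 3.71 FPKM with vehicle. It was lower with WY-14643 in 3 of 5 pairs, and the groups overlapped. Its log2 fold change was -0.10 (95% interval -0.39 to 0.20 without pairs and -0.31 to 0.11 with them; limma, adjusted p = 1 and adjusted p = 0.762).

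Of the 6 tested enzyme genes other than Abhd6, 0 passed in the fit without pairs, in which 0 of 13607 genes (0%) passed. In the fit with matched pairs 0 of the 6 passed too, against 43 of 13607 genes, or 0.316%, with 0.287% higher and 0.0294% lower after WY-14643. With an unadjusted p under 0.05 as the rule, 0 of the 6 passed in either limma fit, against 1.51% and 10.6% of all genes. Voom on the recovered reads, run without pairs, called 0 of all 13607 genes, so its 0 of the 6 adds nothing. With so few calls over the whole table, a count of 0 is near the background. The 6 intervals of the matched fit lay between -0.31 and 0.25.

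**Figure D3:**
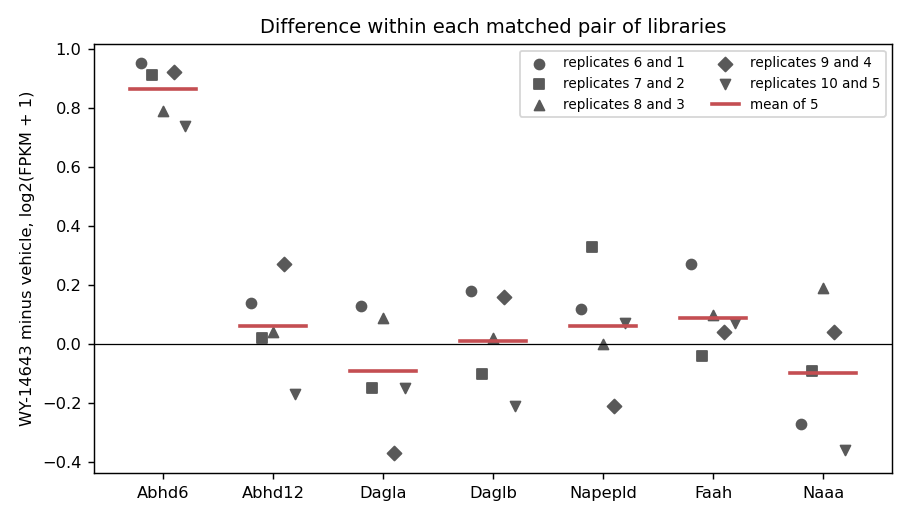
Difference between WY-14643 and vehicle on the log2(FPKM + 1) scale within each matched pair of replicates, for the 7 tested enzyme genes. Symbols are pairs and red lines are means of 5. The pairs of Abhd6 lie between 0.74 and 0.95, and those of the other genes between -0.37 and 0.33. Abhd6, unlike the others, was chosen by a matched fit of these libraries.

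Dagla, Abhd12 and Napepld differed more between pairs than within them, whereas for Faah, Naaa and Daglb the comparison made here does not decide. On the log2(FPKM + 1) scale the SD of the pair means was 0.56 for Napepld, 0.41 for Dagla and 0.31 for Abhd12, against an SD of the differences within pairs of 0.19, 0.20 and 0.16. For Faah, Naaa and Daglb the SD was 0.06, 0.17 and 0.11 between pairs and 0.11, 0.22 and 0.17 within them. A difference between libraries varies more than their mean even where pairs are alike. So the larger SD within pairs does not show that these genes lacked a difference between pairs. Dagla and Abhd12 were highest in the pair of replicates 9 and 4 and lowest in that of replicates 10 and 5, whereas Napepld was lowest in the first and highest in the second. Epithelial state also differed between these pairs. Krt20, a keratin of differentiated surface cells, was at 169 and 129 FPKM in WY-14643 replicate 9 and vehicle replicate 4, and at 6.92 and 6.12 FPKM in WY-14643 replicate 10 and vehicle replicate 5. Mki67, a marker of dividing cells, was at 13.0 and 9.12 FPKM in replicates 9 and 4, the lowest values of their groups, and at 36.8 and 43.3 FPKM in replicates 10 and 5. The part of these cell states in the enzyme levels was not tested.

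**Figure D4:**
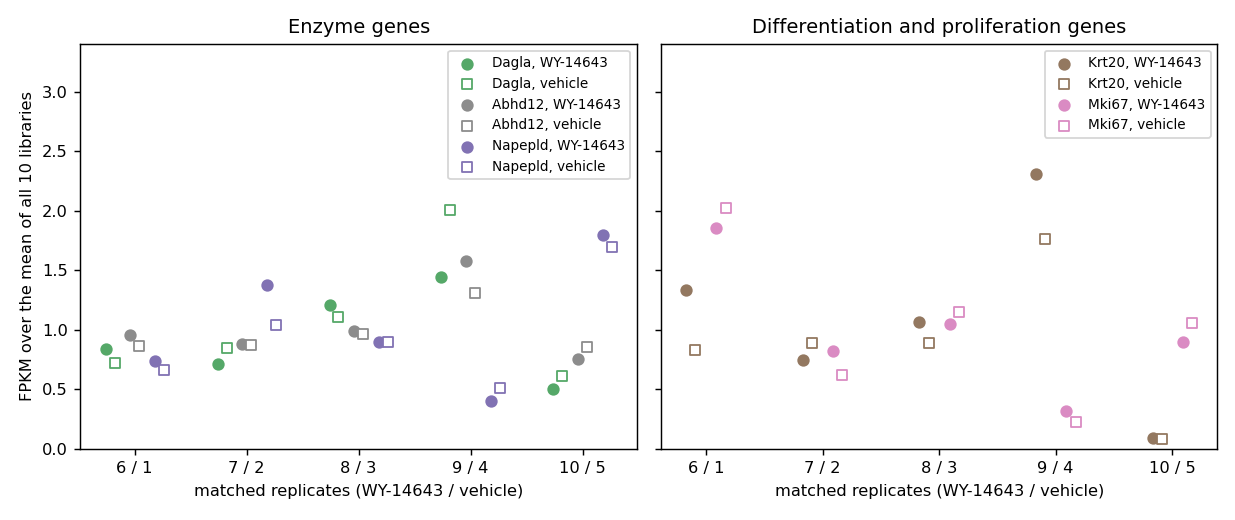
FPKM in each library divided by the mean over all 10 libraries, for Dagla, Abhd12 and Napepld (left) and for Krt20 and Mki67 (right). The x axis gives the matched replicates, with filled circles for WY-14643 and open squares for vehicle. In replicates 9 and 4 Dagla, Abhd12 and Krt20 stand high and Napepld and Mki67 low, and in replicates 10 and 5 Napepld is high and Krt20 near 0.

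The rest of the pathway was described with 76 genes in lists by role, of which 48 passed the filter. None of the 48 was called in either limma fit (0% and 0.316% of all genes). Voom without pairs called 0 genes in the whole table, so its 0 of the 48 adds nothing. At an unadjusted p under 0.05 there were 2 of 48 in the limma fit without pairs, against 1.51% of all genes. In the matched limma fit there were 10 of 48, all higher with WY-14643, against 10.6% of all genes. Both shares were above those of all genes. Each count includes Fabp1, which passed the filter only through its WY-14643 libraries and so supports nothing. The median log2 fold change over the 48 was 0.07, beside -0.006 over all genes tested. In 7 of the 48 all 5 pairs were higher and in 1 all 5 were lower, where 5.63% and 6.09% of all genes were. The share higher in all pairs was thus above that of all genes, and the share lower was below it. No set test was run, and the lists were chosen with earlier results of these data known.

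Reads of the cannabinoid receptor genes were few or none. Of 9 receptor genes 2 passed the filter, the nuclear receptors Pparg, at 22.9 ± 8.32 FPKM with WY-14643 and 28.9 ± 16.7 FPKM with vehicle, and Ppard, at 14.7 ± 1.79 and 14.0 ± 2.05 FPKM (SD, n = 5 each). Cnr1, the gene of CB1, was listed at 0 in 9 of 10 libraries, and Gpr119, a receptor for oleoylethanolamide, in all 10. Cnr2, the gene of CB2, reached at most 0.18 FPKM with WY-14643 and 0.0833 FPKM with vehicle. Ppara itself was below the filter, at 0.336 ± 0.177 FPKM with WY-14643 and 0.298 ± 0.174 FPKM with vehicle (SD, n = 5 each).

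Among other enzymes of N-acylethanolamine synthesis 5 of 10 genes were tested, with a median log2 fold change of 0.21. The most abundant was Abhd4, a lysophospholipase of the route that bypasses NAPE-PLD, at 36.0 ± 5.95 FPKM with WY-14643 and 31.2 ± 7.68 FPKM with vehicle (limma, adjusted p = 1 without pairs and adjusted p = 0.153 with them). It was higher in 5 of 5 pairs. Gde1, a glycerophosphodiesterase of the same route, was at 31.6 ± 7.32 and 31.9 ± 11.1 FPKM (SD, n = 5 each). Phospholipases C, which supply diacylglycerol, had a median of 0.09 over 6 tested genes, led by Plcb3 at 52.5 ± 9.26 FPKM with WY-14643 and 51.2 ± 13.7 FPKM with vehicle. Enzymes that oxygenate 2-arachidonoylglycerol and anandamide had a median of 0.03 over 4 tested genes. Their most abundant member Ptgs2, the inducible cyclooxygenase, was at 86.1, 9.58, 22.5, 23.1 and 11.7 FPKM with WY-14643, against 69.3, 11.6, 19.0, 19.3 and 12.3 FPKM with vehicle, so 1 pair stood far above the others in both groups.

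Enzymes that use monoacylglycerol and diacylglycerol in other ways had a median of 0.08 over 13 tested genes. The difference of Dgat2, which makes triglyceride from diacylglycerol, was the largest of the 13, a gene picked for its value. It was at 14.4, 13.0, 14.9, 23.9 and 7.63 FPKM in WY-14643 replicates 6 to 10, against 5.82, 8.68, 8.38, 13.1 and 6.07 FPKM in vehicle replicates 1 to 5. The groups overlapped and all 5 pairs were higher, but neither fit called it (log2 fold change 0.71; limma, adjusted p = 1 without pairs and adjusted p = 0.0840 with them). Mogat2, the intestinal enzyme that turns monoacylglycerol into diacylglycerol, also picked for its value, was at 3.36 ± 1.96 and 2.23 ± 1.29 FPKM (SD, n = 5 each; limma, adjusted p = 1 without pairs and adjusted p = 0.358 with them). Pnpla2, the lipase that starts triglyceride breakdown, was at 32.5 ± 1.45 and 28.9 ± 3.66 FPKM.

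Relatives of ABHD6 in the list of other ABHD hydrolases, which leaves out Abhd4, differed little between the groups. Over the 14 tested genes of that list the log2 fold changes lay between -0.06 and 0.19, with a median of 0.07. Of these genes 0 passed in either fit. Abhd4 is also of the ABHD family but was listed with N-acylethanolamine synthesis. Its log2 fold change was 0.22, with 5 of 5 pairs higher, and its groups overlapped. The most abundant of the 14 was Abhd2, at 31.7 ± 4.78 FPKM with WY-14643 and 29.6 ± 5.0 FPKM with vehicle (SD, n = 5 each). Next came Abhd17a, a depalmitoylating enzyme, at 29.3 ± 2.75 and 28.8 ± 1.97 FPKM (SD, n = 5 each). Intracellular carriers had a median of 0.12 over 3 tested genes without Fabp1 (0.34 over 4 with it), and the widest difference was that of Fabp1, a liver and gut fatty acid binding protein, with a log2 fold change of 1.42 (limma, adjusted p = 1 without pairs and adjusted p = 0.420 with them). Fabp1 passed the filter only through its WY-14643 libraries, at 1.25, 1.40, 0.759, 14.2 and 0 FPKM, against 0 FPKM in 4 vehicle libraries and 0.0623 FPKM in vehicle replicate 2.

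**Figure D5:**
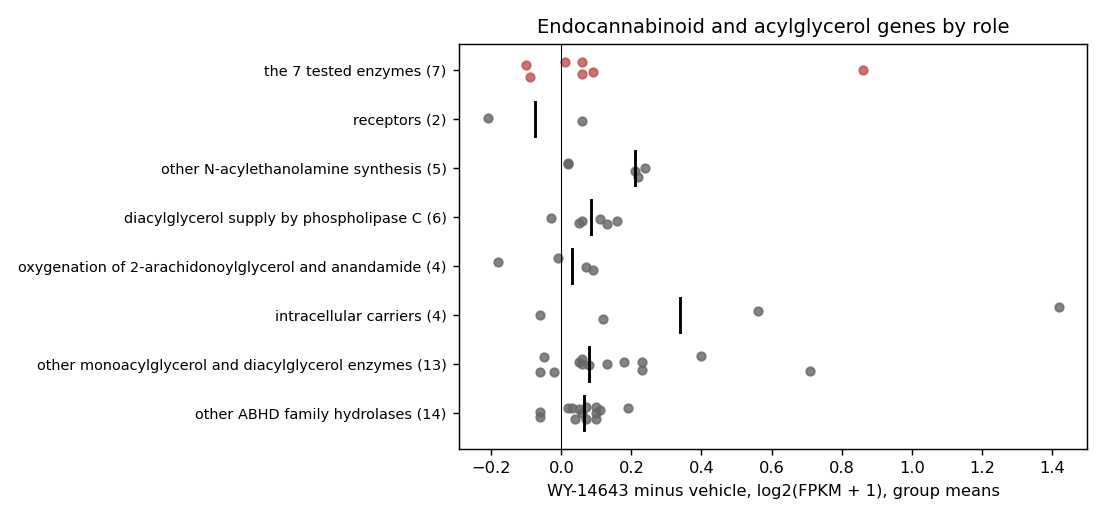
Log2 fold change of group means, WY-14643 minus vehicle, for each tested gene of the enzyme set (red) and of 7 lists of pathway genes (grey), with the number of genes in brackets. Black bars are medians of the lists, which lie between -0.07 and 0.34, the highest being that of the carriers, 0.12 without Fabp1. The red point at 0.86 is Abhd6, and the grey point at 1.42 is Fabp1.

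Abhd6 (ENSMUSG00000025277) spans chr14:14413010-14466871 on the minus strand in the table's build, whereas RefSeq places it on the plus strand of chromosome 14 in GRCm38.p6. No other gene of the table overlaps it. Its neighbour Rpp14, which encodes a subunit of ribonuclease P, ends 23603 bases away on the same strand. Rpp14 was at 19.0 ± 2.03 FPKM with WY-14643 and 19.6 ± 2.86 FPKM with vehicle (SD, n = 5 each), a log2 fold change of -0.03 with a 95% interval of -0.30 to 0.23 without pairs (limma, adjusted p = 1 without pairs and adjusted p = 0.859 with them). On the other side Dnase1l3, a secreted deoxyribonuclease, was at most 0.135 FPKM with WY-14643 and 0.170 FPKM with vehicle. Dnase1l3 was too low to test.

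The protein-coding genes most like Abhd6 over the 10 libraries, by Pearson correlation of log2(FPKM + 1) among 10374 genes with a mean of at least 1 FPKM, were Acaa2 (r = 0.967), Cpt1a (0.958), Klf11 (0.956), Sptssb (0.953) and Aldh9a1 (0.947). Acaa2 is the thiolase of mitochondrial fatty acid oxidation. All 5 were higher with WY-14643 in every pair, and treatment is part of this likeness. With the mean of each group taken off, the closest were Insig2 (r = 0.975), Phldb1 (0.975), Tmem98 (0.969), Hnf4a (0.968) and Bcl2l14 (0.962), none of which is among the first 5. Hnf4a, a transcription factor of intestinal epithelium, was at 118 ± 25.0 FPKM with WY-14643 and 105 ± 33.5 FPKM with vehicle (SD, n = 5 each), and Insig2, which holds back sterol synthesis, was at 18.9 ± 1.80 and 18.0 ± 1.93 FPKM. Matched libraries share their pair, so the 10 points are not independent and the correlations are descriptions only. Among the enzyme genes Faah came closest by either measure, at rank 297 over the 10 libraries (r = 0.63) and rank 1962 with group means taken off (r = 0.447). Naaa ran opposite, at r = -0.562 over the 10 libraries and r = -0.672 with group means taken off.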

How the data were processed

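Polyadenylated RNA of 10 libraries was sequenced, 5 with WY-14643 and 5 with vehicle, grouped by library title. The deposited values are FPKM, made by the authors from gene lengths and an unstated factor per library. Per the submitters' processing notes, featureCounts 1.5.0-p3 and HISAT2 2.0.5 were run with mm39. Which annotation release was used, whether strand was counted and how multiply mapped reads were treated is not stated in them. Coordinates are the table's, except for promoters, which come from RefSeq's GRCm38.p6. FPKM times gene length, over the smallest such value of a library, was whole for 100% of values above 0 (tolerance 0.01), which gave the reads.

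Genes with a mean of at least 0.5 FPKM (13607) were tested with limma 3.58.1 in R 4.3.3 on log2(FPKM + 1), with a trend and robust priors, two-sided, Benjamini-Hochberg over all genes, threshold 0.05. This scale understates changes of low genes. The planned fit has no pairs, because the labels give none. A fit with matched replicates (6 with 1 to 10 with 5) was an alternative, printed beside the tests of the enzymes. Others were a pseudocount of 0.1, other filters, rescaling to TPM, voom on the reads and leaving out libraries or pairs. Both fits were checked on simulated data. Genes were named by a rule: the enzymes, check genes, up to 3 abundant genes per list, neighbours and genes like Abhd6. Mogat2, Dgat2, Lgr5, the values of Car1, the medians without Fabp1 and the receptors below the filter were added after their values were seen. The genes and lists were chosen with earlier results of these data known. Figures used matplotlib 3.10.9 in Python 3.11.15. Some immune and neural marker genes are not reported here, and the sums given are over the genes named.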

Additional observations from a re-analysis of the deposited data

Results flagged for a closer look

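Groups of 5 libraries were looked at for named genes, in each treatment where their values differed. In 11 of 104 groups 1 library lay far from the other 4, with a gap of more than 0.71 of the group's range. Chance gives about 1 in 20 only for independent, normally distributed values. Groups with only 1 library above 0 (Mgll, Cnr1 and vehicle Fabp1) pass by their form, and matched libraries can repeat each other. The count is therefore not read against that rate. Abhd12 was at 28.5 FPKM in vehicle replicate 4 and at 18.6 to 21.1 FPKM in the other vehicle libraries. Mgll was at 0.0184 FPKM in vehicle replicate 5, a value of 2 reads, and at 0 in the others. Ptgs2 was at 86.1 FPKM in WY-14643 replicate 6, against 9.58 to 23.1 FPKM in the other WY-14643 libraries, and at 69.3 FPKM in its match, vehicle replicate 1, against 11.6 to 19.3 FPKM in the other vehicle libraries. Ppard was at 11.5 FPKM in WY-14643 replicate 10, against 15.1 to 15.7 FPKM in the others. Fabp1 was at 14.2 FPKM in WY-14643 replicate 9, against 0 to 1.40 FPKM in the others, and at 0.0623 FPKM in vehicle replicate 2, the 1 vehicle library above 0. Rpp14, the neighbour of Abhd6, was at 14.7 FPKM in vehicle replicate 2, against 19.9 to 21.9 FPKM in the other vehicle libraries. Its other neighbour Dnase1l3 was at 0.17 FPKM in vehicle replicate 1, against 0.0362 to 0.0616 FPKM in the others. Lgr5 was at 2.82 FPKM in WY-14643 replicate 6, against 3.88 to 4.1 FPKM in the others. Cnr1 was at 0.00931 FPKM in WY-14643 replicate 8 and at 0 in the others.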

How the results depend on the processing

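The log2 fold change of Abhd6 kept its sign in all 21 alternatives, between 0.75 and 0.97. Abhd6 was chosen from these libraries and its groups do not overlap, so leaving out a library or a pair could not reverse that sign. The difference in its share of the 3 hydrolase genes, 14.3 percentage points, stayed between 11.5 and 17.6 in the 11 run for it. Both ranges are descriptions only. Abhd6 passed the threshold in the fits with matched pairs, the kind of fit it was chosen from, and in none of the fits without pairs. No other enzyme gene and no gene of the pathway lists was called under any of the 21 alternatives. In 12 of the 21, 0 genes were called over the whole table, so a count of 0 there was fixed. The count of called genes over the whole table was 0 in the fit without pairs, 43 with the replicate block of matched pairs, 0 to 2 when 1 library was left out, and 33, 3, 2, 13 and 33 when 1 matched pair was left out of the replicate block (replicates 6 and 1, 7 and 2, 8 and 3, 9 and 4, 10 and 5). The sign of small fold changes depended on single libraries. With 1 library left out that of Abhd12 ranged from -0.10 to 0.17 (below 0 without WY-14643 replicate 9), that of Dagla from -0.21 to 0.10, that of Daglb from -0.05 to 0.05 and that of Napepld from -0.13 to 0.27. With 1 matched pair left out, Daglb came to -0.03 without replicates 6 and 1 or 9 and 4, and Napepld to -0.01 without replicates 7 and 2. The cause was not tested. Faah and Naaa kept their sign throughout. Depth limits Mgll, Cnr1 and the other genes near 0 reads, for which no difference could be seen.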
